A study of Mus musculus with 6 samples.

Results

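The genes described here are 47 markers of macrophages and of their activation states, out of 54532 genes counted in cultures of mouse bone marrow stromal cells (mBMSCs). They were taken from a given list of gene symbols, matched on the gene name in the annotation, by a rule that used no measured value. The list itself was chosen with earlier results of these data known. The list holds 26 pan-macrophage genes, 10 Fc and scavenger receptors, 6 genes that mark resident or recruited macrophage types, and 5 genes of alternative activation. All 47 were found, and 46 passed the filter on low counts that left 14624 genes to test. Retnla was the member that did not pass.

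Macrophages are phagocytes of the myeloid lineage. They depend on colony-stimulating factor 1 and its receptor Csf1r, take up antibody-coated particles through Fc receptors, and take up modified lipoproteins and microbes through scavenger receptors. Macrophages of bone and marrow line bone surfaces, clear dying cells and adhere to plastic, so that primary cultures of adherent marrow cells can carry them along with stromal cells. Interleukin 4 and interleukin 13 drive the alternative state marked by Arg1, Mrc1, Chil3 and Retnla in the mouse, and bacterial products with interferon-γ drive the classical state marked by Nos2 and Il12b.

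The cells were wild-type primary mBMSCs from bone, labelled as mesenchymal stem cells, kept for 7 days in an osteogenic medium with ascorbic acid (50 μg/mL), β-glycerophosphate (10 mM) and dexamethasone, a glucocorticoid. The control group (Con) received vehicle and the Ni group received nickel ions at 0.1 μM, each as 3 biological replicates. Both groups shared the osteogenic medium, so that no library shows the cells before differentiation. The labels give dexamethasone at 100 nM, whereas the methods of the study give a lower concentration. The strain, age and sex of the mice and the number of mice behind each culture were not given in the sources used here. RNA came from whole cultures, and no sort or gate for or against macrophages was stated. In such bulk RNA, fewer cells of a type and less RNA per cell cannot be told apart.

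The libraries held from 16101033 to 18642504 counts. Control replicate 3 stood apart from the other controls. For 40 of the 46 macrophage genes tested (87.0%) it lay outside control replicates 1 and 2 on the side of the Ni mean, as it did for 66.1% of all genes tested. It was kept in its labelled group, and nothing in the counts could test that label. Results are therefore given without this library too, or as the range with each library left out in turn. Defining markers of stromal cells were present, with Col1a2 at 59408 to 169287 counts and Pdgfra at 970 to 1299, although Thy1, another marker of marrow stromal cells, reached at most 25 counts. Of the 10 neutrophil markers 8 had under 10 counts in every library. The same was true of 4 of 5 T cell markers, 4 of 5 B cell markers, 4 of 5 mast cell markers and 5 of 5 erythroid markers. Among the exceptions, Cd4 had 385 to 611 counts, Cd79b had 228 to 670 and Kit had 100 to 217. Cd3e, Cd3d, Cd8a, Ms4a1, Ly6g and the globin gene Hba-a1 had 0 or 1 counts in each library. Osteoclast fusion genes Dcstamp and Ocstamp had at most 8 counts. Ptprc, which mesenchymal stromal cells lack by definition, had 311 to 472 CPM (counts scaled to a common library size), so that the labelled cell type did not cover all cells in the cultures.

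Macrophage transcripts were abundant in all 6 cultures. The 47 genes took 3.23%, 3.18% and 3.61% of all counts in control replicates 1, 2 and 3, and 3.11%, 3.04% and 3.17% in Ni replicates 1, 2 and 3. Control replicate 3 was the highest and the 3 Ni libraries were the lowest, with control replicate 2 closest to them. The difference of the means, Ni minus control, was -0.232 percentage points with all libraries and -0.0968 without control replicate 3. Lyz2, which encodes the lysozyme of macrophages, alone took 1.04%, 0.948% and 1.52% of all counts in the controls and 1.20%, 1.08% and 1.27% in the Ni libraries. With Lyz2 left out, the other members took 2.19%, 2.23% and 2.09% in the controls and 1.91%, 1.96% and 1.90% in the Ni libraries. These groups did not overlap, and the means were 2.17% ± 0.0724 (SD, n = 3) in the controls and 1.92% ± 0.0321 (SD, n = 3) with Ni. No test was made on these sums, since a sum over chosen genes is a description.

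**Figure D1:**
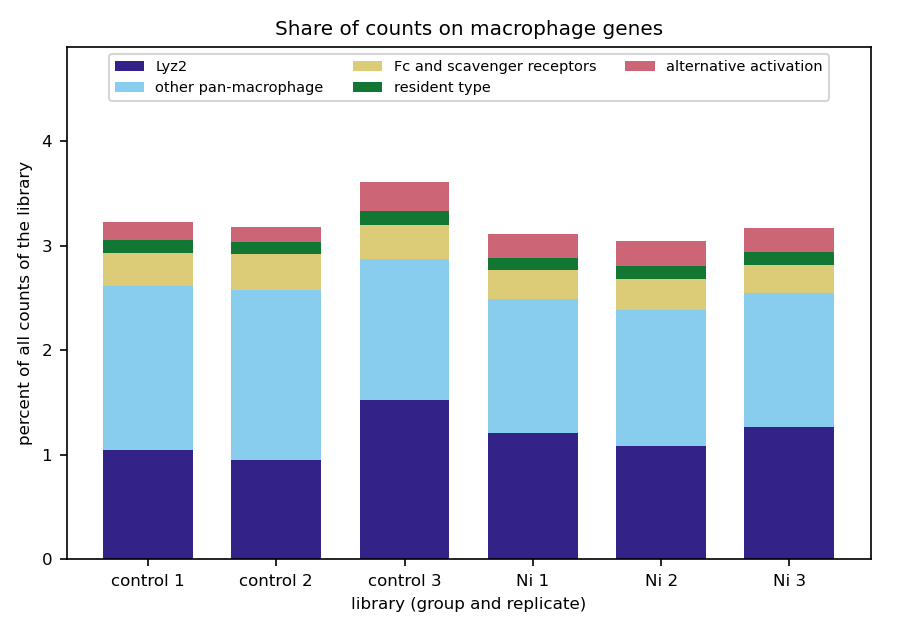
Percent of all counts of each library (y axis) taken by the 47 macrophage genes, stacked by class with Lyz2 drawn separately, for control replicates 1 to 3 and Ni replicates 1 to 3 (x axis). The total is highest in control replicate 3 (3.61%), where Lyz2 is also highest (1.52%), and the other pan-macrophage genes take less in the 3 Ni libraries than in control replicates 1 and 2.

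Levels between genes were compared on the FPKM scale, which divides by gene length. Averaged over the 6 libraries, Lyz2 was far above the rest with 8883 FPKM. The F4/80 gene Adgre1 followed with 918 FPKM, then the Fc receptor γ chain Fcer1g with 612 and the adaptor Tyrobp with 561. Marco (422 FPKM), Csf1r (379), Laptm5 (334) and the mannose receptor Mrc1 (313) came next, and from Fcer1g to Mrc1 the mean of each gene ± its SD over the 6 libraries overlapped that of the next. At the other end, Ccr2 had 1.86 FPKM, Chil3 had 1.09, Timd4 had 0.499 and Retnla had 0.326.

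**Figure D2:**
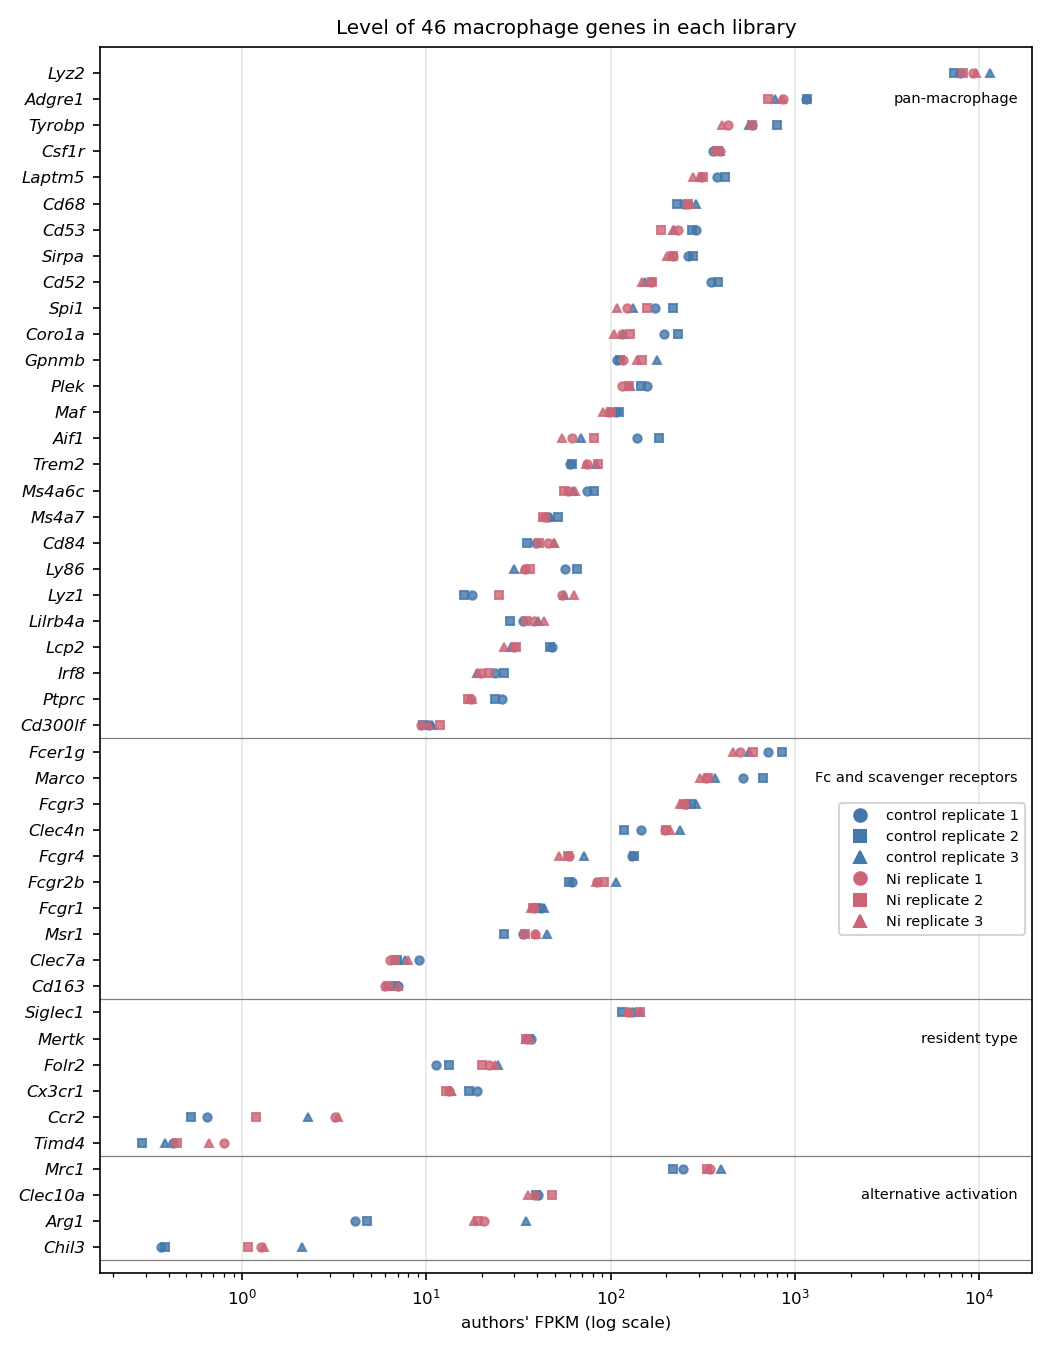
Level of 46 macrophage genes (rows, by class; Retnla left out) as the authors' FPKM on a logarithmic axis, 1 point per library. Levels span from Lyz2, at a mean of 8883 FPKM, to Timd4, at 0.499 FPKM, and within most genes the 6 libraries lie close together compared with the distance between genes.

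No macrophage gene passed an adjusted p of 0.05 in the comparison of the 3 Ni with the 3 control libraries (0 of 46, with 0% of all genes tested). The smallest adjusted p was 0.241, for Fcgr4 (edgeR, quasi-likelihood test, Benjamini-Hochberg). At an unadjusted p under 0.05, 12 of the 46 were lower in Ni, or 26.1%, and 5.83% of all genes tested were. None of the 46 was higher at that level, and 7.59% of all genes tested were. The median log2 fold change was -0.14 over the members and -0.01 over all genes tested. Fold changes were negative for 26 of the 46 members and for 7596 of the 14624 genes tested. All 3 Ni libraries lay below all 3 controls for 7 members (15.2%, with 6.71% of all genes tested), namely Fcgr4, Marco, Fcgr1, Fcgr3, Cx3cr1, Plek and Ms4a7. They lay above all controls for 1 member, Timd4 (2.17%, with 7.97% of all genes tested). With 3 libraries in each group, an exact two-sided permutation test cannot give a p below 0.1.

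The classes differed in the sign of their median. It was -0.25 for the pan-macrophage genes, of which 8 of 26 were lower at an unadjusted p under 0.05, and -0.15 for the Fc and scavenger receptors, of which 3 of 10 were. Of all genes tested 5.83% were lower at that level. The median was 0.21 for the 6 resident-type genes, with Cx3cr1 as the 1 gene lower at that level. These genes ran from -0.32 for Cx3cr1 to 1.15 for Ccr2, with Mertk at -0.01 and Siglec1 at 0.00. Their median was 0.11 without control replicate 1, 0.14 without control replicate 2 and 0.46 without control replicate 3. The median of the 4 alternative-activation genes tested was 0.30, all 4 with values above 0 (7028 of all 14624 genes tested) and none at that level. It was 0.0095 without control replicate 1, 0.011 without control replicate 2 and 1.12 without control replicate 3, so that it rested on the control libraries. For the first 2 classes the median stayed negative when any library was left out, from -0.33 to -0.17 and from -0.16 to -0.10. A difference between classes was not tested.

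**Figure D3:**
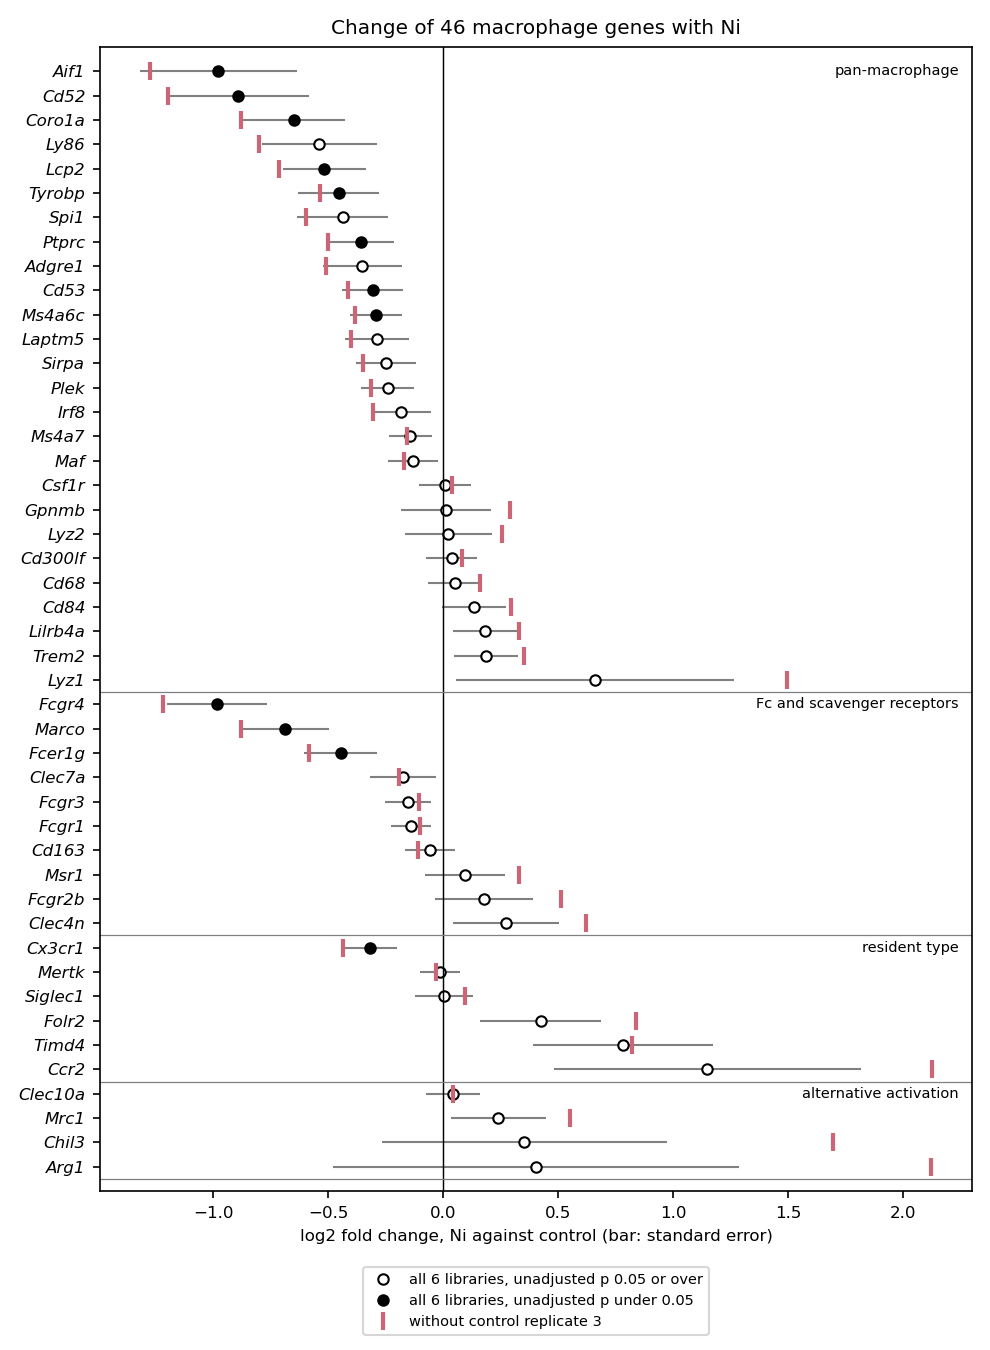
Log2 fold change of 46 macrophage genes, Ni against control, with its standard error (grey bars); filled circles have an unadjusted p under 0.05, open circles do not, and red ticks give the value without control replicate 3. The 12 filled circles all lie below 0, and the red ticks lie farther from 0 than the circles for most genes, with Arg1 moving from 0.40 ± 0.88 to 2.12.

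When control replicate 3 was left out, 17 of the 46 members were lower in Ni at an adjusted p under 0.05, or 37.0%, and 8 were higher, or 17.4% (edgeR). The shares of all genes tested were 6.49% and 8.69%. The lower genes were Fcgr4, Marco, Fcer1g, Cx3cr1, Aif1, Ly86, Ms4a6c, Sirpa, Adgre1, Spi1 and the 7 pan-leukocyte genes Ptprc, Cd53, Cd52, Laptm5, Lcp2, Plek and Coro1a. The higher genes were Arg1, Chil3, Mrc1, Folr2, Ccr2, Fcgr2b, Clec4n and Trem2. Since control replicate 3 lay on the Ni side of the other controls for most members, leaving it out widens the gap between the groups by construction, and these counts are a description of 5 libraries. They rest on 2 controls, and leaving out any other single library gave 0 members at that level. In DESeq2 with all 6 libraries, 2 members were lower at an adjusted p under 0.05 (4.35%, with 0.334% of all genes tested), namely Fcgr4 and Marco. None was higher, with 1.49% of all genes tested.

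**Figure D4:**
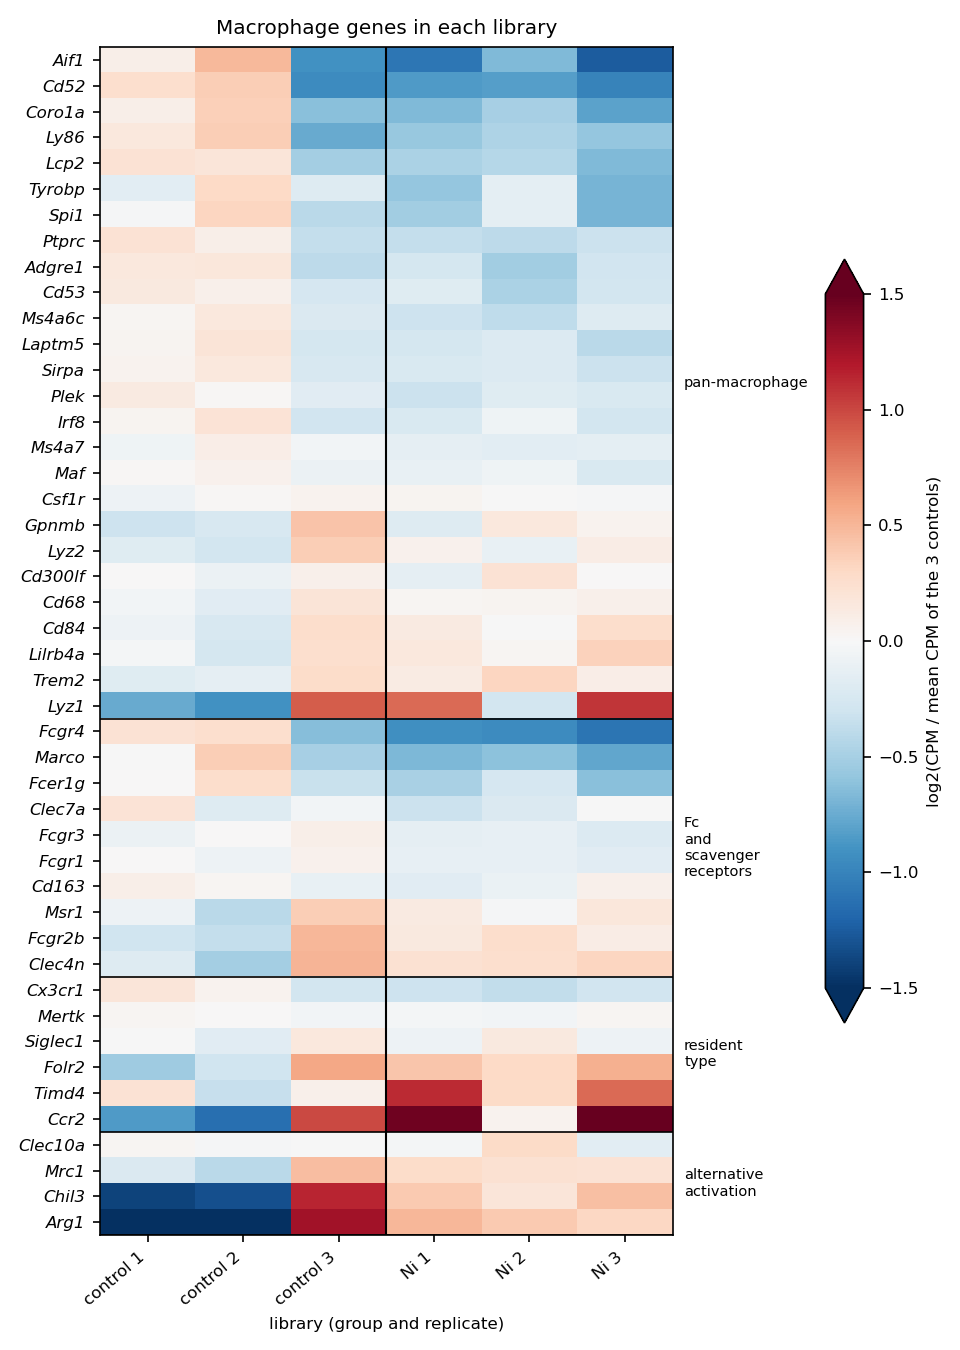
Log2 ratio of each library's CPM to the mean CPM of the 3 controls (colour, limited to 1.5 in either direction) for 46 macrophage genes in rows, by class, and the 6 libraries in columns. For 40 of the 46 genes control replicate 3 lies outside the other controls on the side of the Ni mean, and Arg1 and Chil3 are darkest in control replicates 1 and 2.

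CPM values (on library sizes scaled by TMM) are given per library in the order of the replicate numbers. The core surface markers of macrophages differed from one another. Csf1r, the receptor for colony-stimulating factor 1 and interleukin 34, ranged from 1763 to 1929 CPM over all 6 libraries. Its log2 fold change was 0.01 ± 0.11 (SE, n = 3 per group), and the groups overlapped. Of its exon bases 15.1% lie under exons of Hmgxb3 on the other strand. Adgre1 had 3729, 3781 and 2553 CPM in the controls and 2793, 2342 and 2753 in the Ni libraries. The first 2 controls were high, whereas control replicate 3 lay among the Ni libraries. Its log2 fold change was -0.35 ± 0.17 with an adjusted p of 0.399 (edgeR), and the values with each library left out in turn, here called the leave-one-out range, ran from -0.51 to -0.26. Cd68, a lysosomal glycoprotein, had a log2 fold change of 0.05 ± 0.11.

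The 3 macrophage transcription factors had negative fold changes, none at an unadjusted p under 0.05. Spi1 encodes PU.1, which is required to form myeloid cells and macrophages, and had a log2 fold change of -0.44 ± 0.20 with an adjusted p of 0.377 (edgeR). Its leave-one-out range was -0.60 to -0.24, the last without control replicate 2. Maf, a factor of mature macrophages, had -0.13 ± 0.11, and Irf8, which directs monocyte and macrophage development, had -0.19 ± 0.13.

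Lysozymes break down bacterial cell walls, and the mouse has a pair of neighbouring genes for them, Lyz2 in macrophages and Lyz1 chiefly in Paneth cells. Lyz2 had 10328, 9616 and 15097 CPM in the controls and 12188, 10801 and 12596 in the Ni libraries. Control replicate 3 was the highest of all 6, and the groups overlapped, with a log2 fold change of 0.02 ± 0.19. Lyz1 was much lower, from 20.4 to 80.5 CPM, and had a log2 fold change of 0.66 ± 0.61 and a leave-one-out range of 0.36 to 1.49. The genes lie side by side on the minus strand of chromosome 10 in GRCm38, Lyz1 at chr10:117287797-117292868 and Lyz2 at chr10:117277331-117282321, and their coding sequences of 447 bases each differ at 22 bases (95.1% identity). Of the 50-base stretches of the Lyz1 transcripts 16.1% also occurred in Lyz2, so that reads of the abundant Lyz2 could be counted on Lyz1 and the Lyz1 values are uncertain. Coding bases 43 to 132, which hold 13 of these 22 differences, are given from the GENCODE M21 transcripts, with the bases that differ in capitals.
Lyz1: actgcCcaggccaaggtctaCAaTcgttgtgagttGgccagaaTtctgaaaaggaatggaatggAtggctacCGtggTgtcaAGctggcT
Lyz2: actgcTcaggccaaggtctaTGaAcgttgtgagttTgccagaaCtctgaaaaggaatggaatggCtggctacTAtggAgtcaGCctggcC

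Tyrobp (DAP12) is an adaptor with an ITAM, a tyrosine motif that recruits the kinase Syk, and it carries signals for receptors such as Trem2. Tyrobp had 391, 535 and 381 CPM in the controls and 291, 393 and 269.5 in the Ni libraries. Ni replicates 1 and 3 lay below every control and Ni replicate 2 lay among them. The log2 fold change was -0.45 ± 0.18, with an unadjusted p of 0.0283 and an adjusted p of 0.341 (edgeR). Trem2, a lipid-sensing receptor that signals through Tyrobp, had 0.19 ± 0.14, with a leave-one-out range of 0.10 to 0.35.

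All 7 pan-leukocyte genes, which are used in most white blood cells, had negative fold changes, with a median of -0.36 and with 5 lower at an unadjusted p under 0.05. Of all 14624 genes tested, 7596 had negative fold changes and 5.83% were lower at that level. Cd52, a small glycosylphosphatidylinositol-anchored surface peptide, had 421, 458 and 185 CPM in the controls and 196, 201 and 176 in the Ni libraries. Control replicates 1 and 2 were high and control replicate 3 lay among the Ni libraries. The change on the log2 scale was -0.89 ± 0.31, with an adjusted p of 0.334 (edgeR) and a leave-one-out range of -1.20 to -0.66, and 14.5% of its exon bases lie under exons of Crybg2 on the opposite strand. Coro1a, an actin-binding coronin of leukocytes, had 542, 653 and 329.5 CPM in the controls and 322, 359 and 290.3 in the Ni libraries, the same arrangement, with a log2 fold change of -0.65 ± 0.22 and a leave-one-out range of -0.88 to -0.43. Lcp2 (SLP-76), an adaptor downstream of immune receptors, had 215, 211 and 130.4 CPM in the controls and 134, 138 and 118 in the Ni libraries. It again had control replicate 3 within the Ni range, and its log2 fold change was -0.52 ± 0.18, from -0.71 to -0.40 over the left-out libraries.

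Ptprc encodes CD45, the tyrosine phosphatase present on all white blood cells. It had 472, 432 and 317 CPM in the controls and 319, 311 and 325 in the Ni libraries, which lay close together and included the value of control replicate 3. Ni against control gave a log2 fold change of -0.36 ± 0.14, with a leave-one-out range of -0.50 to -0.24. Cd53, a leukocyte tetraspanin, had 510.1, 486 and 386 CPM in the controls and 405, 331 and 381 in the Ni libraries, and Ni replicate 1 lay above control replicate 3. The log2 fold change was -0.31 ± 0.13, with a leave-one-out range of -0.41 to -0.23. Laptm5, a lysosomal membrane protein of blood cells, had -0.29 ± 0.14. Plek, the protein kinase C substrate pleckstrin, had -0.24 ± 0.11 and did not overlap between groups.

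Of the other 9 myeloid genes, 2 were lower at an unadjusted p under 0.05, with 5.83% of all genes tested. Aif1 (IBA1), a calcium-binding protein of macrophages and microglia, had 213, 280.3 and 107 CPM in the controls and 94.6, 126 and 84.0 in the Ni libraries. Control replicate 3 lay between Ni replicates 1 and 2. The change on the log2 scale was -0.98 ± 0.34, with an adjusted p of 0.338 (edgeR) and a range of -1.27 to -0.66 when each library was left out in turn. Ms4a6c, a membrane protein of the MS4A family, had 154, 167 and 129 CPM in the controls and 121, 116 and 131 in the Ni libraries, with Ni replicate 3 just above control replicate 3. Its log2 fold change was -0.29 ± 0.11 (leave-one-out range -0.38 to -0.21), and 53.1% of its exon bases lie under exons of BE692007 on the other strand. Reads from such overlapping genes cannot be told apart if counting did not use strand, which the sources used here do not state.

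The remaining myeloid genes had unadjusted p values over 0.05. Ly86 (MD-1), the partner of the Toll-like receptor relative RP105, had a log2 fold change of -0.54 ± 0.25. Sirpa, which receives the CD47 signal that holds back phagocytosis, had -0.25 ± 0.13, and Ms4a7, a further MS4A protein, had -0.14 ± 0.09 without overlap between groups. Cd84, a SLAM family receptor, had 0.14 ± 0.14, the inhibitory receptor Cd300lf had 0.04 ± 0.11, the lysosome-associated glycoprotein Gpnmb had 0.01 ± 0.20, and the inhibitory receptor Lilrb4a had 0.18 ± 0.14. For Lilrb4a 47.2% of the 50-base stretches are shared with other genes, so that its value is uncertain.

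Fc receptors bind the constant region of antibodies. In the mouse Fcgr1, Fcgr3 and Fcgr4 activate through the γ chain Fcer1g, and Fcgr2b inhibits. Fcgr4, which binds IgG2a, IgG2b and IgE, was the member with the smallest p. It had 165, 169.5 and 90.9 CPM in the controls and 74.8, 74.1 and 66.3 in the Ni libraries. The controls lay above the Ni libraries without overlap, with control replicate 3 nearest to them. Ni against control gave a log2 fold change of -0.98 ± 0.22, with an unadjusted p of 0.00193 and an adjusted p of 0.241 (edgeR), against 0.000669 in DESeq2. Leaving out each library in turn gave -1.22 to -0.84, the first without control replicate 3.

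Fcer1g had 626, 746 and 493 CPM in the controls and 443, 522 and 404 in the Ni libraries. Ni replicate 2 lay above control replicate 3 and the other Ni libraries lay below all controls. The log2 fold change was -0.45 ± 0.16, with a leave-one-out range of -0.58 to -0.29. Fcgr3, the most abundant of the IgG receptors by FPKM (259.7), had 448, 479.6 and 506 CPM in the controls and 435, 441 and 414 in the Ni libraries. These did not overlap, and the log2 fold change was only -0.15 ± 0.10, with control replicate 3 the highest of all. Fcgr1, the high-affinity receptor, had -0.14 ± 0.09, also without overlap and with control replicate 3 the highest. The inhibitory Fcgr2b had 0.18 ± 0.21, with a leave-one-out range of 0.03 to 0.51. Fcgr2b, Fcgr4, Fcgr3 and Fcer1g lie within chr1:170958617-171234365 of GRCm38, and 9.58% of the 50-base stretches of Fcgr3 also occur in Fcgr2b.

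Scavenger receptors take up modified lipoproteins, bacteria and debris. Marco had 1005, 1305 and 714 CPM in the controls and 634, 656 and 588 in the Ni libraries. The groups did not overlap, and control replicate 3 was again the control nearest to the Ni libraries. The change on the log2 scale was -0.69 ± 0.19, with an adjusted p of 0.284 in edgeR and 0.0188 in DESeq2. Leaving out control replicate 2 gave -0.46 and leaving out control replicate 3 gave -0.88. Msr1, the class A receptor, had 0.10 ± 0.17, and Cd163, the receptor for haemoglobin bound to haptoglobin, had -0.06 ± 0.11. Among the C-type lectins that sense fungi, Clec7a (dectin-1) had -0.17 ± 0.14 and Clec4n (dectin-2) had 0.27 ± 0.23, the latter with a leave-one-out range of 0.07 to 0.62.

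**Figure D5:**
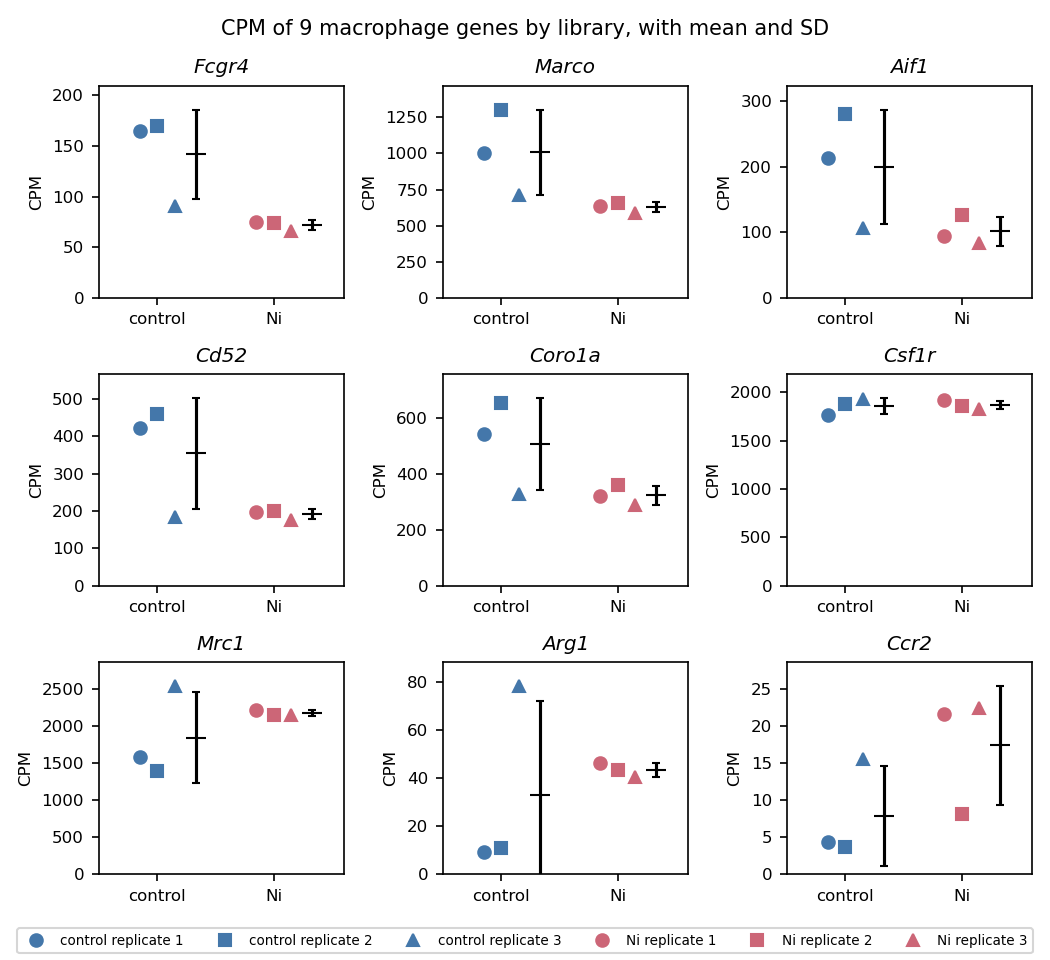
CPM of 9 macrophage genes in each library (points, shape by replicate number) with the group mean and SD (black bars; the lower bar of the Arg1 controls is cut at 0). Fcgr4 and Marco do not overlap between groups, Aif1, Cd52 and Coro1a have control replicate 3 at the level of the Ni libraries, Csf1r is level over all 6, and for Arg1 control replicate 3 is the highest library.

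Promoters are shown for 4 members, the lower Fcgr4, Marco and Aif1 and, for contrast, Mrc1, because PU.1 (Spi1) is known to bind a core of GAGGAA at macrophage genes. They were chosen after their values were seen. RefSeq (GRCm38.p6) listed promoters for 34 of the 47 members. The 150 bases before the listed start are printed 5′ to 3′ on the gene's strand, with GAGGAA or its complement TTCCTC in capitals. The printed bases lie at chr1:171018776-171018925 (plus strand) for Fcgr4, chr1:120505025-120505174 (minus) for Marco, chr17:35176053-35176202 (minus) for Aif1 and chr2:14229264-14229413 (plus) for Mrc1.
Fcgr4: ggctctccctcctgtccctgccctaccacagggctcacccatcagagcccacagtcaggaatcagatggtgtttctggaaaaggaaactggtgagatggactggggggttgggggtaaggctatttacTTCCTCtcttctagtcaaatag
Marco: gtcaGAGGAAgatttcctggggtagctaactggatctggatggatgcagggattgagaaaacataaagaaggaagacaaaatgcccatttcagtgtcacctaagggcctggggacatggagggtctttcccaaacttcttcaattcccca
Aif1: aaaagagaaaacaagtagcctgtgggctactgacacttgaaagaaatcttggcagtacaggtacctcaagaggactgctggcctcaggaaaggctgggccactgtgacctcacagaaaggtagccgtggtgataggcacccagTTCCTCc
Mrc1: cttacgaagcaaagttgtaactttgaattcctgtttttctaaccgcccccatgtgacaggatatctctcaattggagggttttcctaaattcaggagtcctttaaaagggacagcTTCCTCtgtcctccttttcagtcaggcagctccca

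The match lay at -22 from the start for Fcgr4, at -7 for Aif1 and at -146 for Marco. Within windows from 250 bases before to 50 after the start, on both strands, GAGGAA was held by 20 of the 41 promoters of members (48.8%) and by 28.3% of all 32851 promoters. The longer GAGGAAGT (ACTTCCTC on the other strand), which contains the first, was held by 4 of the 41, among them Fcgr4, and by 3.20% of all. A match of letters is a description and not a binding site. Mrc1, whose fold change was positive, held 3 matches upstream of its start, against 1 each for Fcgr4, Marco and Aif1.

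Among the genes that separate macrophage types, Cx3cr1, the receptor for fractalkine on monocytes and resident macrophages, had 84.9, 77.3 and 61.7 CPM in the controls and 60.2, 57.9 and 61.2 in the Ni libraries. The groups did not overlap, but control replicate 3 was only just above the highest Ni library. Ni against control gave a log2 fold change of -0.32 ± 0.12, with a leave-one-out range of -0.44 to -0.22 and an adjusted p of 0.334 with all libraries (edgeR). Ccr2, the receptor that brings monocytes out of the marrow, had 4.37, 3.59 and 15.6 CPM in the controls and 21.6, 8.12 and 22.4 in the Ni libraries. Control replicate 3 and Ni replicates 1 and 3 were high, the rest were low, and the groups overlapped. Its log2 fold change of 1.15 ± 0.67 was the largest of any member, with a leave-one-out range of 0.81 to 2.13, and had an adjusted p of 0.498 (edgeR).

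Siglec1 (CD169), a sialic acid receptor of marrow macrophages, had 933, 829 and 1046 CPM in the controls and 889, 1037 and 887 in the Ni libraries. The ranges overlapped, and the log2 fold change was 0.00 ± 0.13. Mertk, which clears dying cells, had 160.3, 158 and 152 CPM in the controls and 153, 152 and 159.6 in the Ni libraries. The 6 libraries were level and the groups overlapped, with a log2 fold change of -0.01 ± 0.09. Folr2, a folate receptor of resident macrophages, had 17.6, 20.6 and 38.0 CPM in the controls and 34.0, 31.3 and 36.7 in the Ni libraries, with control replicate 3 the highest. Its log2 fold change was 0.42 ± 0.26 with all libraries, 0.22 without control replicate 1 and 0.84 without control replicate 3, and 63.1% of its exon bases lie under exons of Gm10602 on the opposite strand. Timd4 (TIM-4), a phosphatidylserine receptor of long-lived resident macrophages, was near the limit of detection with 17, 10 and 14 reads counted in the controls and 32, 17 and 26 with Ni. All Ni values on the CPM scale lay above all controls, with a log2 fold change of 0.78 ± 0.39 and an adjusted p of 0.406 (edgeR).

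In the alternative-activation class, control replicate 3 was the highest library for Mrc1, Arg1 and Chil3. Mrc1 (CD206), the mannose receptor, was the most abundant of them and had 1587, 1391 and 2543 CPM in the controls and 2221, 2154 and 2144 in the Ni libraries. The Ni libraries were alike and lay between control replicate 3 and the other controls. The log2 fold change was 0.24 ± 0.21, with 0.07 without control replicate 2 and 0.55 without control replicate 3. Arg1, the arginase that turns arginine into ornithine and urea, had 9.23, 10.7 and 78.2 CPM in the controls and 46.0, 43.1 and 40.5 in the Ni libraries. Control replicate 3 was the highest library and control replicates 1 and 2 were the lowest. Its log2 fold change was 0.40 ± 0.88 with all libraries, 2.12 without control replicate 3, and -0.04 or -0.01 without control replicate 1 or 2.

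Chil3 (Ym1), a chitinase-like secreted protein, had 0.601, 0.630 and 3.48 CPM in the controls and 2.06, 1.78 and 2.15 in the Ni libraries. As for Arg1, control replicate 3 was the highest and control replicates 1 and 2 were the lowest. The change on the log2 scale was 0.35 ± 0.62, from -0.04 to 1.70 with a library left out, and other genes, chiefly Chil4, hold 26.9% of its 50-base stretches. Clec10a, a lectin for galactose sugars, had 118, 114 and 115 CPM in the controls and 114, 141 and 103 in the Ni libraries. The Ni range contained that of the controls, with a log2 fold change of 0.04 ± 0.12. Retnla (RELMα), a secreted protein induced by interleukin 4, was counted 0, 1 and 5 times in the controls and 13, 0 and 2 times with Ni and was not tested. As a share of the members' counts, the alternative-activation class took 5.35%, 4.70% and 7.64% in the controls and 7.57%, 7.70% and 7.28% in the Ni libraries. Control replicate 3 again lay with the Ni libraries, and most of this share was Mrc1.

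Further lists place the members among related genes. With all 6 libraries, no gene of these lists passed an adjusted p of 0.05 (edgeR). Their fold changes are from that fit, and some moved without control replicate 3 (Syk to -0.77, Ptgs2 to 1.30). At an unadjusted p under 0.05, 5.83% of all genes tested were lower and 7.59% were higher. Of 22 other macrophage genes, 5 were lower and 1 was higher in Ni at an unadjusted p under 0.05, with a median log2 fold change of -0.07. The lower ones included the integrin subunits Itgam (-0.40 ± 0.13) and Itgb2 (-0.55 ± 0.20), the inhibitory receptor Pirb (-0.35 ± 0.12) and the metal transporter Slc11a1 (-0.52 ± 0.19). The summed level of these 22 genes was 21335 to 23323 CPM in the controls and 19752 to 21773 CPM in the Ni libraries. Unlike the share of the members without Lyz2, these ranges overlapped. Of 11 tested genes of the Csf1r pathway, the kinase Syk was lower at that level (-0.54 ± 0.21) and none was higher. The ligands Csf1 (0.13 ± 0.16) and Il34 (0.19 ± 0.13) had an unadjusted p of 0.431 and 0.178 in the same edgeR test.

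Of 15 classical-activation genes 13 were tested, with Tnf lower (-0.62 ± 0.16) and Ptgs2, which encodes cyclooxygenase-2, higher (0.80 ± 0.33) at an unadjusted p under 0.05. Il12b had 0 counts in every library and Il6 at most 5. Nos2 was detected, with 35, 21 and 103 counts in the controls and 110, 70 and 106 with Ni. Its groups overlapped, with a log2 fold change of 0.75 ± 0.51. Of 15 genes of the interleukin 4 response 13 were tested, with none lower and the transcription factors Irf4 (0.86 ± 0.32) and Klf4 (0.59 ± 0.16) higher at that level. Il13 had at most 1 count in any library. Il4 was detected, with 62, 40 and 61 counts in the controls and 69, 54 and 74 with Ni, and had a log2 fold change of 0.19 ± 0.25. The medians of the classical and interleukin 4 lists were -0.19 and -0.06 on the log2 scale.

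Most stromal and osteoblast markers had positive fold changes in the same libraries. Of 10 stromal markers 6 were higher (among them Col1a2 and Postn) and 1 was lower (Cxcl12) at an unadjusted p under 0.05, and all 9 osteoblast markers were higher. Of all genes tested 7.59% were higher and 5.83% were lower at that level. The summed level of the stromal markers was 10302 to 14694 CPM in the controls and 16432 to 19507 CPM in the Ni libraries, and that of the osteoblast markers was 10354 to 20475 CPM and 22814 to 30339 CPM, with control replicate 3 the highest control for both. Of the 3 osteoclast markers tested, Ctsk (0.62 ± 0.31) and Atp6v0d2 (0.24 ± 0.50) did not pass that level, and Acp5, also expressed by macrophages, was lower (-0.90 ± 0.35), at 18538, 18889 and 6944 reads in the controls and 8867, 8798 and 7512 with Ni. Of the 5 endothelial markers Pecam1, which leukocytes also express, was lower (-0.65 ± 0.25), while Cdh5 (-0.19 ± 0.20), Tie1 (-0.09 ± 0.47), Kdr (0.09 ± 0.35) and Emcn (0.58 ± 0.27) did not pass that level. No dendritic cell or megakaryocyte marker passed it, and Flt3 had at most 3 counts. The part of these shifts in the macrophage values was not tested.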

How the data were processed

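RNA was measured in 3 control and 3 Ni cultures, grouped by their titles. Per the labels, libraries were made from fragmented mRNA with random primers and a NEBNext Ultra kit, and the build was GRCm38. The authors deposited raw read counts per gene, not normalized, and FPKM values, which equalled those counts divided by gene length and by 1 factor per library. The aligner, counting tool, strand setting and test were not given in the sources used here.

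The counts were filtered with filterByExpr, scaled by TMM and tested with the quasi-likelihood test of edgeR 4.0.16 (robust, prior count 0.125) in R 4.3.3, with Benjamini-Hochberg adjustment over 14624 genes. The step was tested on simulated data. The standard error of a log2 fold change was its unshrunk estimate over the square root of F. Alternatives were DESeq2 1.42.0, limma 3.58.1 on log2(FPKM + 1) and log2(FPKM + 0.1), other scalings and filters, a replicate block, a gene-length correction and leaving out each library. No 2 libraries of a group were duplicates. Library totals of 16101033 to 18642504 counts set the precision. All 47 members are named. Values per library are given for members with an unadjusted p under 0.05, the 3 most abundant by FPKM and the 2 with the largest fold change of each class. The members and lists were chosen with earlier results of these data known, so a list's count or median is a description beside that of all genes tested. Some genes of the further lists are not reported here.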

Additional observations from a re-analysis of the deposited data

How the results depend on the processing

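Of the fold changes of single members, 489 of 506 kept their direction and their side of an adjusted p of 0.05 under 11 settings that used all libraries, 13 passed that level only under the alternative, and 4 changed sign. Those 4 were close to 0. With the gene-length trend removed, the log2 fold change of Csf1r was -0.0096 and the log2 fold change of Siglec1 was -0.0094, and with the replicate block as well they were -0.0089 and -0.0092.

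The number of members with an adjusted p under 0.05 was 0 in edgeR with all libraries, 7 with no filter on low counts, 2 in DESeq2, 3 with the replicate block and 1 with the replicate block and the gene-length trend removed together. Over all genes tested the same settings gave 0, 1027, 257, 315 and 256 genes, limma on log2(FPKM + 1) gave 2, and leaving out control replicate 3 gave 2283. Leaving out a library gave 0 to 25 members, with 25 only without control replicate 3. Members higher at an unadjusted p under 0.05 numbered 0, then 3 with no filter, 1 with at least 10 counts in every library, 1 with limma on either FPKM scale, 3 with the replicate block, 4 with the replicate block and the length trend removed, and 0 to 14 when a library was left out. Members lower at that level numbered 12, and 2 to 19 when a library was left out, with 6 without Ni replicate 1, 4 without Ni replicate 3, 5 without control replicate 1, 2 without control replicate 2 and 19 without control replicate 3. The correlations of deviations between libraries of the same replicate number were 0.0104, 0.256 and 0.138. Without a reference value these cannot show whether the replicate numbers pair the libraries. The cause of these changes was not tested.

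The median log2 fold change of the members was -0.14 to -0.10 when a library was left out. With the most abundant member of each class left out, the difference in share of the members' counts, Ni minus control, moved from -1.09 to -0.0867 percentage points for the Fc and scavenger receptors and from 1.62 to 0.214 for the alternative-activation class. The range with a library left out was -1.58 to -0.588 and 1.02 to 2.49 for these classes, -1.24 to -0.239 for the pan-macrophage genes, 0.102 to 0.382 for the resident-type genes and -0.311 to -0.0968 for all members as a share of all counts.

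With a library left out, 22 of 276 single values changed sign, in 11 genes. The range of the values was -0.029 to 0.040 for Csf1r, -0.029 to 0.16 for Cd68, -0.10 to 0.26 for Lyz2, -0.057 to 0.12 for Cd300lf, -0.12 to 0.29 for Gpnmb, -0.068 to 0.33 for Msr1, -0.077 to 0.095 for Siglec1, -0.035 to 0.0038 for Mertk, -0.040 to 2.12 for Arg1, -0.043 to 1.70 for Chil3 and -0.091 to 0.14 for Clec10a. Leaving out a library for the shares and for the class medians was chosen after seeing the data.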
